A study of Mus musculus with 9 samples.

Results

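Cytosolic ribosomal proteins are the protein components of the ribosome that translates messenger RNA outside mitochondria, and they are named Rps in the small subunit and Rpl in the large subunit. They were measured by 100 of the 22626 probe sets tested on a mouse expression array, chosen by gene symbol alone. A probe set was taken where the platform annotation gave it a single symbol of Rpl or Rps with a number, or Rplp0, Rplp1, Rplp2 or Rpsa, and ribosomal protein kinases and pseudogenes were left out. The 100 probe sets stood for 48 genes, with 54 probe sets of 22 small subunit genes and 46 of 26 large subunit genes, and 23 genes had 2 or more probe sets. No single-gene probe set carried the symbols Rplp1, Rpl5, Rps27a or Rpl10l, so these genes were not analysed here. Of the 100 probe sets, 40 had names ending in _x_at and 2 in _s_at. Whether the probes of these also match other genes was not tested.

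RAW 264.7, an established mouse macrophage cell line, was profiled in 9 arrays of total RNA, with 3 untreated, 3 treated with LPS (lipopolysaccharide, a bacterial cell wall component) at 100 ng/ml for 18 h, and 3 labelled as constitutively over-expressing CstF-64, a subunit of the cleavage stimulation factor that acts when the 3′ ends of mRNAs are cut. The sources used here describe neither the construct, nor the kind of cell population that carried it, nor a control for it. They do not say whether replicates came from separate cultures, so the p-values rest on a spread between arrays that could be technical alone. The labels set both other groups against the untreated cells. All 8 macrophage marker genes read above the background limit on at least 1 array, with summed intensities of 13397 to 18224 in untreated, 18542 to 20646 in LPS and 14184 to 17818 in CstF-64 arrays. With LPS 3 of the 8 rose and 1 fell, where 5.93% of all probe sets rose and 10.7% fell. None of 3 T cell markers, 2 of 3 B cell, 1 of 4 fibroblast, 1 of 4 epithelial and 4 of 4 granulocyte markers read above that limit on any array. The granulocyte markers summed to 111.9 to 134.1 in untreated, 110.3 to 211.6 in LPS and 107.2 to 158.5 in CstF-64 arrays, with S100a8 higher in LPS, and their part in the results was not tested. Cstf2, the gene of CstF-64, read 398, 363 and 372 in the untreated arrays, 220.5, 248 and 196 in the LPS arrays and 318, 362 and 394 in the arrays labelled CstF-64, so those arrays were not higher than untreated for its only single-gene probe set. Whether that probe set lies within the construct is not known here. LPS array 1 and CstF-64 array 1 correlated least with the other arrays of their groups, with mean r of 0.966 and 0.975 against 0.977 to 0.985 for the other arrays.

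Ribosomal proteins are made in near-equal amounts to build ribosomes, and their mRNAs are among the most abundant in growing cells. Most of these mRNAs begin with a terminal oligopyrimidine tract, a C at the cap followed by a run of pyrimidines, through which mTOR signalling and the protein LARP1 control their translation more than their amount. LPS acts on macrophages through TLR4, and some ribosomal proteins have further roles there. Human RPL13A, for example, leaves the ribosome in interferon-treated monocytes and joins a complex that silences the translation of inflammatory mRNAs.

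Start-site sequences of some of the genes described below are shown because this tract is the feature that the symbol rule did not use and most members shared. RefSeq sequences (GRCm38.p6) of 250 bases before to 50 bases after the annotated start were matched for 42 of the 48 genes by gene identifier. Rps14 was not among the 42. A C followed by at least 7 more pyrimidines on the coding strand lay between 20 bases before and 50 bases after the start in 30 of the 42 (71.4%), against 20.1% of all 17492 promoters of coding genes. Each line gives 30 bases, 5′ to 3′ on the gene's strand, with its longest tract that begins with C in capitals.
Rps27l chr9:66946066-66946095 (+): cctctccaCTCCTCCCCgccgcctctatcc
Rps27 chr3:90213629-90213658 (-): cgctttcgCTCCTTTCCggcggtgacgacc
Rps24 chr14:24490698-24490727 (+): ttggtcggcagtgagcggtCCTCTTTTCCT
Rpl13a chr7:45128722-45128751 (-): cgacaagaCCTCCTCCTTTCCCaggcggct
Rpl38 chr11:114668572-114668601 (+): gcctcgttCTTTCCCCgttctcttcggttc
Rpl37a chr1:72711276-72711305 (+): cattgcgtCCCTTCCTCTTCggacttgggc
Rplp2 chr7:141447639-141447668 (+): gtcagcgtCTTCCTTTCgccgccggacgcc
Rps6 chr4:86857347-86857376 (-): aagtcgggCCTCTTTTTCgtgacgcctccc
Rpl22 chr4:152324418-152324447 (+): cagcgctgCTTCTggaatgttccagctccc
Rplp0 chr5:115559472-115559501 (+): gcctggttCTCCTataaaaggcacacgcgg
The tract spanned 9 bases in Rps27l and Rps27, 14 in Rpl13a and 5 in Rpl22 and Rplp0. In Rps24 it spanned at least 11, since it reached the end of the sequence searched. CCGGAAG, the core of an ETS family site, was found on either strand of 21 of the 42 sequences (50%) and 11.9% of all, Rps27l among them. CTTTCC on the coding strand, which can overlap the tract, was found in 13 (31%) against 13.8%, and TATAAA on that strand in 5 (11.9%) against 8.99%. These matches describe letters near annotated starts, which need not be the starts used in these cells.

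Most members were bright on these arrays. The deposited intensity, on a linear scale, averaged over 1000 across the 9 arrays for 67 of the 100 probe sets, which 4.05% of all tested probe sets (917) did. A further 18 averaged between 1000 and the background limit of 31.2, the highest value of 27 bacterial control probe sets, and 15 averaged at or below it. At least 1 probe set above that limit was found for 45 of the 48 genes and at least 1 over 1000 for 36. The 3 genes with none were Rpl3l, Rpl39l and Rps4l, whose probe sets had means of 3.62, 4.7 and 1.21. Rpl3l is the form of Rpl3 made in heart and skeletal muscle, and Rpl39l is a form of Rpl39, a protein of the peptide exit tunnel, made in male germ cells. Probe sets of 1 gene could lie on both sides, as for Rpsa, a small subunit protein also known as the laminin receptor, whose probe sets read 2886 to 3948 and 0.9 to 1.7 in the untreated arrays. A probe set's intensity also depends on its probes, so no ratio of levels between genes was drawn.

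Few ribosomal protein mRNAs differed detectably between LPS-treated and untreated cells. Of the 100 probe sets, 2 passed the test against untreated cells, 1 of Rps14, which rose, and 1 of Rps27l, which fell. In the same fit 16.6% of all 22626 probe sets passed (5.93% higher, 10.7% lower), and 2399 passed in place of 3755 without untreated array 2. The test was limma's moderated test on log2(intensity + 13) with Benjamini-Hochberg adjustment over all probe sets, and fold changes on that scale understate those of dim probe sets. An unadjusted p under 0.05 was found for 17 members, against 28.8% of all probe sets. The 95% interval of the change lay within 2-fold in either direction for 90 of the 100 members, and for 66 of the 67 over 1000. It lay within 1.5-fold for 66 and 52 of these, so smaller changes in single genes were not detectable for many. Of the 90 and 66 members, 13 and 10 were at or below the background limit, where the added 13 shrinks changes and intervals. All arrays were scaled to a common mean, so a change in total mRNA per cell would not be seen, and in RNA of whole cultures a change in fewer cells and less RNA per cell cannot be told apart.

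**Figure D1:**
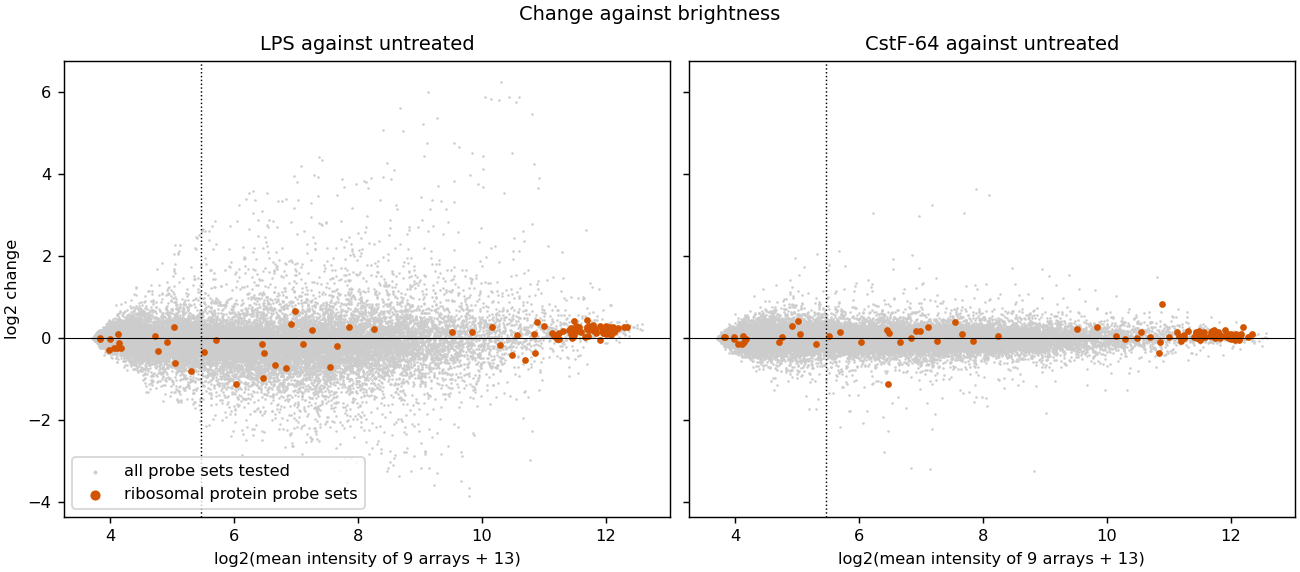
Log2 change against untreated cells (vertical axis) plotted against log2(mean intensity of 9 arrays + 13) for all 22626 probe sets tested (grey) and the 100 ribosomal protein probe sets (orange), for LPS and for CstF-64. The dotted line is the background limit of 31.2. Most ribosomal protein probe sets lie at the bright end and close to 0, between -1.10 and 0.67 for LPS.

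Rps27l, a near copy of the small subunit protein Rps27 whose human counterpart is a p53 target gene, was the only member that fell. Its probe set 1450925_a_at read 2008, 1648 and 1810.0 in the untreated arrays, 1107, 1312 and 1387 in the LPS arrays and 2005, 1751 and 1791 in the arrays labelled CstF-64. Every LPS array lay below every array of the other groups. The means were 1822 ± 180.0 untreated and 1269 ± 145 with LPS (SD, n = 3 each), a log2 change of -0.52 (SE 0.13, limma adjusted p = 0.0216). The call was lost when each array was centred on its median (-0.36, limma adjusted p = 0.125). It was also lost without untreated array 1 (limma adjusted p = 0.0723), untreated array 3 (0.0562) or LPS array 1 (0.0508), and the adjusted p ranged from 0.00475 to 0.125 over 19 alternatives. The log2 change was negative under all 19, from -0.72 to -0.36.

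The other Rps27l probe sets were also lower in LPS without passing the test. Both have names ending in _x_at, and whether their probes match Rps27l alone was not tested. Probe set 1423254_x_at read 1596, 1394 and 1620.3 untreated and 866, 1216 and 1433 with LPS, a log2 change of -0.41 (adjusted p = 0.136 by limma), with LPS array 3 inside the untreated range. Probe set 1435429_x_at read 2116, 1796 and 2193 untreated and 1362, 1698 and 1722 with LPS, a change of -0.35 (adjusted p = 0.123), and its groups did not overlap. Both passed under quantile normalization and cyclic loess, which take out shifts that depend on brightness, with changes of -0.60 and -0.61 under the former. Against LPS, the arrays labelled CstF-64 were higher by 0.54 for 1450925_a_at (SE 0.13, limma adjusted p = 0.0191), a comparison that shares the LPS arrays with the one above. That call was lost under median centring (limma adjusted p = 0.118) and without CstF-64 array 1 (0.052) or 3 (0.0556), and without LPS array 1 and CstF-64 array 1 together (0.0723).

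Rps27 itself, a zinc finger protein of the small subunit, was measured by the dim probe set 1460699_at, which is described here after its values were seen. It read 91.3, 78.1 and 94.6 untreated, 115, 135 and 206 with LPS and 95.3, 118 and 89.7 in the arrays labelled CstF-64. The LPS arrays were all above the untreated arrays, LPS array 3 farthest, and the change of 0.67 (SE 0.20) did not pass the test (limma adjusted p = 0.0503). It passed under quantile normalization (0.82), median centring (0.83) and cyclic loess (0.86). It also passed with the smaller pseudocount, with the filter on dim probe sets and without the intensity trend. Leaving out LPS array 1, alone or together with CstF-64 array 1, likewise gave a call. It did not pass with the larger pseudocount, with only the compared groups, with the replicate block or with any other single array left out. Whether Rps27 and Rps27l changed unequally was not tested, since the probe sets belong to different genes.

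Rps14, a protein of the small subunit platform, had the only member probe set that rose. All its probe sets here have names ending in _x_at, and whether their probes match Rps14 alone was not tested. Probe set 1437706_x_at read 3269.8, 2459.8 and 2848 untreated and 3704, 3835 and 4066 with LPS, with no overlap. The rise was 0.44 on the log2 scale (SE 0.13, adjusted p = 0.0424 by limma). The gene's other probe set, 1436586_x_at, read 3049, 2721 and 3312 untreated and 3555, 3427 and 3695 with LPS, a change of 0.24 (limma adjusted p = 0.24). The call for 1437706_x_at was lost under quantile normalization (0.14, limma adjusted p = 0.508), under cyclic loess (0.24, 0.223) and when only the untreated and LPS arrays were fitted (limma adjusted p = 0.0908). It was also lost without untreated array 2 (limma adjusted p = 0.14) or 3 (0.0895), LPS array 1 (0.0555), 2 (0.0953) or 3 (0.128), and CstF-64 array 2 (0.0676) or 3 (0.07).

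**Figure D2:**
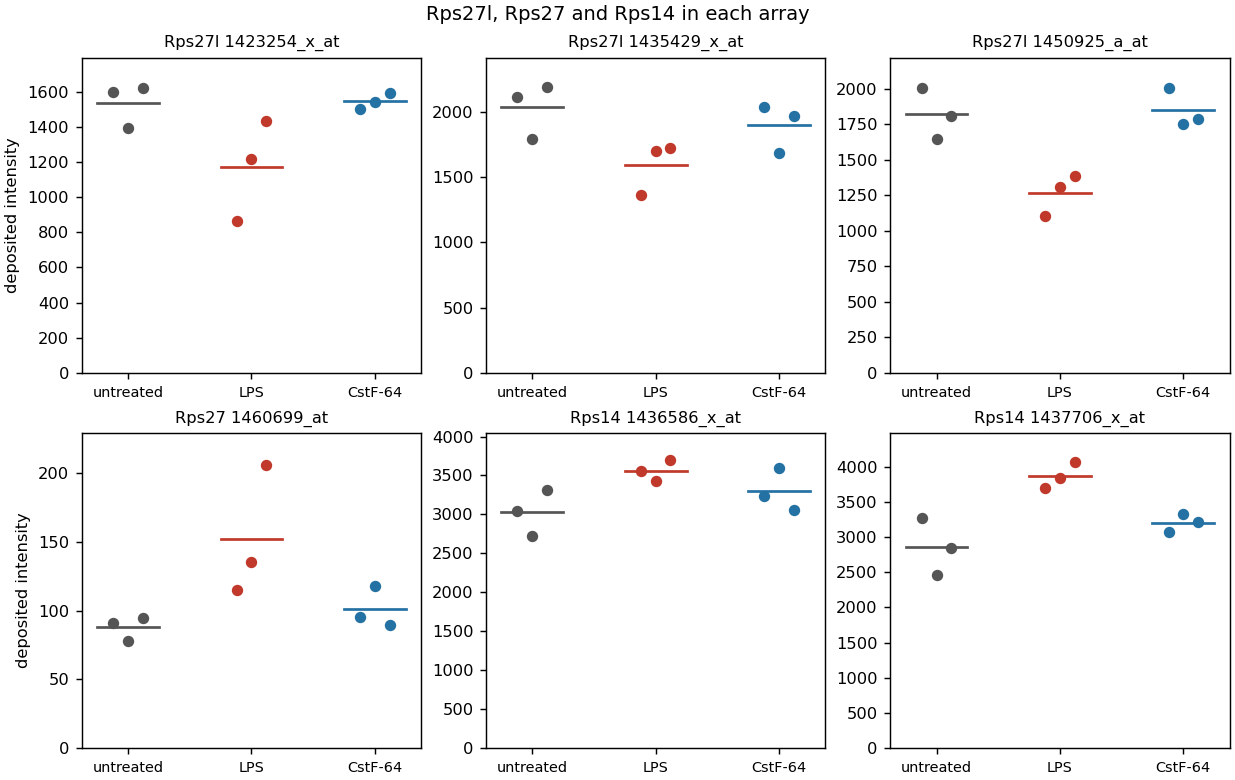
Deposited intensity in each array (points, linear axis from 0) with the group mean (line) for the 3 probe sets of Rps27l, the probe set of Rps27 and the 2 of Rps14, in 3 untreated, 3 LPS and 3 CstF-64 arrays. LPS arrays lie below the untreated arrays for Rps27l 1450925_a_at (1107 to 1387 against 1648 to 2008) and above them for Rps27 and Rps14.

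Taken as deposited, more members were higher than lower in LPS, and this turned with the scaling. Their median log2 change was 0.14, with 70 of 100 above 0, and the median of all probe sets was -0.04. Among probe sets over 1000, the median was 0.18 for the 67 members and 0.17 for all 917, although 24.1% of those 917 passed the test and 2.99% of the members did. Over all probe sets, LPS and untreated arrays did not overlap for 33.4%. In 21 members every LPS array was above every untreated array, against 12.2% of all probe sets, and in 9 every LPS array was below, against 21.2%. Among probe sets over 1000, every LPS array was above for 28.4% of the 67 members and for 35.3% of all 917. Under quantile normalization the members' median turned to -0.11, and under cyclic loess to -0.03. Median centring moved it to 0.30 while moving the median of all probe sets to 0.12.

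Untreated arrays also differed among themselves. Untreated array 3 exceeded untreated array 2 for 64 of the 67 members over 1000, with a median log2 difference of 0.25, and array 2 was the lowest of all 9 arrays for 44 of them. Array 3 exceeded array 1 for 46 of the 67 (median difference 0.12), and array 1 exceeded array 2 for 57 (0.11). The median deviation of these 67 from their own 9-array means was -0.077 ± 0.14 in untreated, 0.098 ± 0.068 in LPS and -0.016 ± 0.082 in CstF-64 arrays (SD, n = 3 each, log2). Under quantile normalization the same values were 0.028, -0.072 and 0.047. The arrays' own medians over all probe sets moved with the group, at 42.75 to 49.3 in LPS and 51.1 to 54.2 in the others, and their part in the result was not tested.

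**Figure D3:**
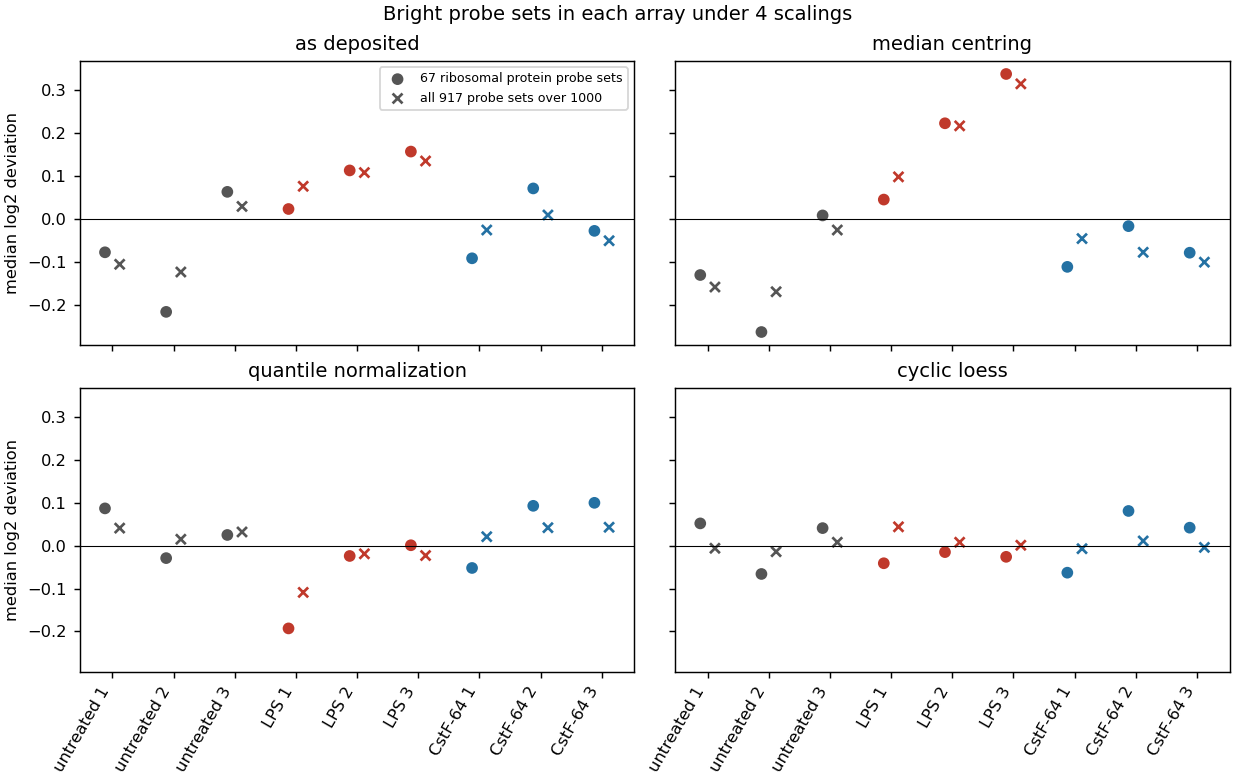
Median log2 deviation from each probe set's own 9-array mean, for the 67 ribosomal protein probe sets over 1000 (circles) and all 917 probe sets over 1000 (crosses), in each of 9 arrays under 4 scalings. As deposited, untreated array 2 is lowest at -0.217, and under quantile normalization LPS array 1 is lowest at -0.193.

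Of the 54 small subunit probe sets 1 rose and 1 fell with LPS (median 0.13 as deposited), and none of the 46 large subunit probe sets passed in either direction (median 0.15 as deposited, with 7 at an unadjusted p under 0.05 by limma). Of all probe sets 16.6% passed, and 28.8% had an unadjusted p under 0.05. In the stalk, which recruits translation factors, Rplp0 read 3259, 3044 and 3407 untreated and 4154, 3578 and 3621 with LPS, a log2 change of 0.22 (limma adjusted p = 0.267) without overlap. Rplp2, the other stalk protein measured, read 4363, 4133 and 5343 and 5728, 5200.1 and 5848, with LPS array 2 inside the untreated range and a change of 0.28 (limma adjusted p = 0.191). Rpl12, at the base of the stalk, had 1 dim probe set that is named after its values were seen. It read 87.8, 133 and 95.3 untreated and 46.3, 70.5 and 71.6 with LPS, a change of -0.64 that just missed the threshold (limma adjusted p = 0.0574).

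No probe set of Rpl13a, Rpl11, Rps3, Rps19, Rpsa or Rps6 passed the test. For Rpl13a, whose human counterpart has the silencing role named above, 4 probe sets changed by -0.02, 0.27, 0.31 and 0.32 on the log2 scale. The last of these, 1455485_x_at, read 3416, 2848 and 3315 untreated and 4428, 3638 and 3938 with LPS, all higher (limma adjusted p = 0.114). It passed under median centring (0.48) and when dim probe sets were left out of the adjustment (limma adjusted p = 0.0458). Rpl11, which binds the p53 regulator Mdm2 when ribosome assembly is disturbed, read 2148, 2269.5 and 2828 untreated and 2012, 2528 and 2600.1 with LPS, which overlapped (-0.02). Rps3, which lies at the mRNA entry site and in human cells also binds NF-κB, read 4339, 3679 and 4808 and 5272, 4789.9 and 4741, again overlapping (0.21, limma adjusted p = 0.341). Rps19, mutated in human Diamond-Blackfan anaemia, changed by 0.10, and the 1448245_at probe set of Rpsa by 0.19. Rps6, the substrate of S6 kinases, had only dim probe sets, of which 1416142_at read 83.6, 57.2 and 75.6 untreated and 50.4, 70.5 and 71.7 with LPS.

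Rpl22 and its near copy Rpl22l1, which Rpl22 represses in mice, were both bright. Rpl22 1416603_at read 2965, 2559.7 and 3322 untreated and 3035, 3202 and 3565 with LPS (0.15), and Rpl22l1 read 1583, 1260.2 and 1402 and 1305, 1438 and 1733 (0.07), with overlap in each. A second, dimmer Rpl22 probe set, 1448398_s_at, went the other way, at 168, 146 and 196 untreated, 60.5, 124 and 128 with LPS and 117, 323 and 299 in the arrays labelled CstF-64. Its LPS arrays were all below the untreated arrays, without passing the test (-0.70, SE 0.37, limma adjusted p = 0.25). The 2 probe sets of Rpl7l1, a gene named for its likeness to Rpl7, changed by 0.23 and -0.18.

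**Figure D4:**
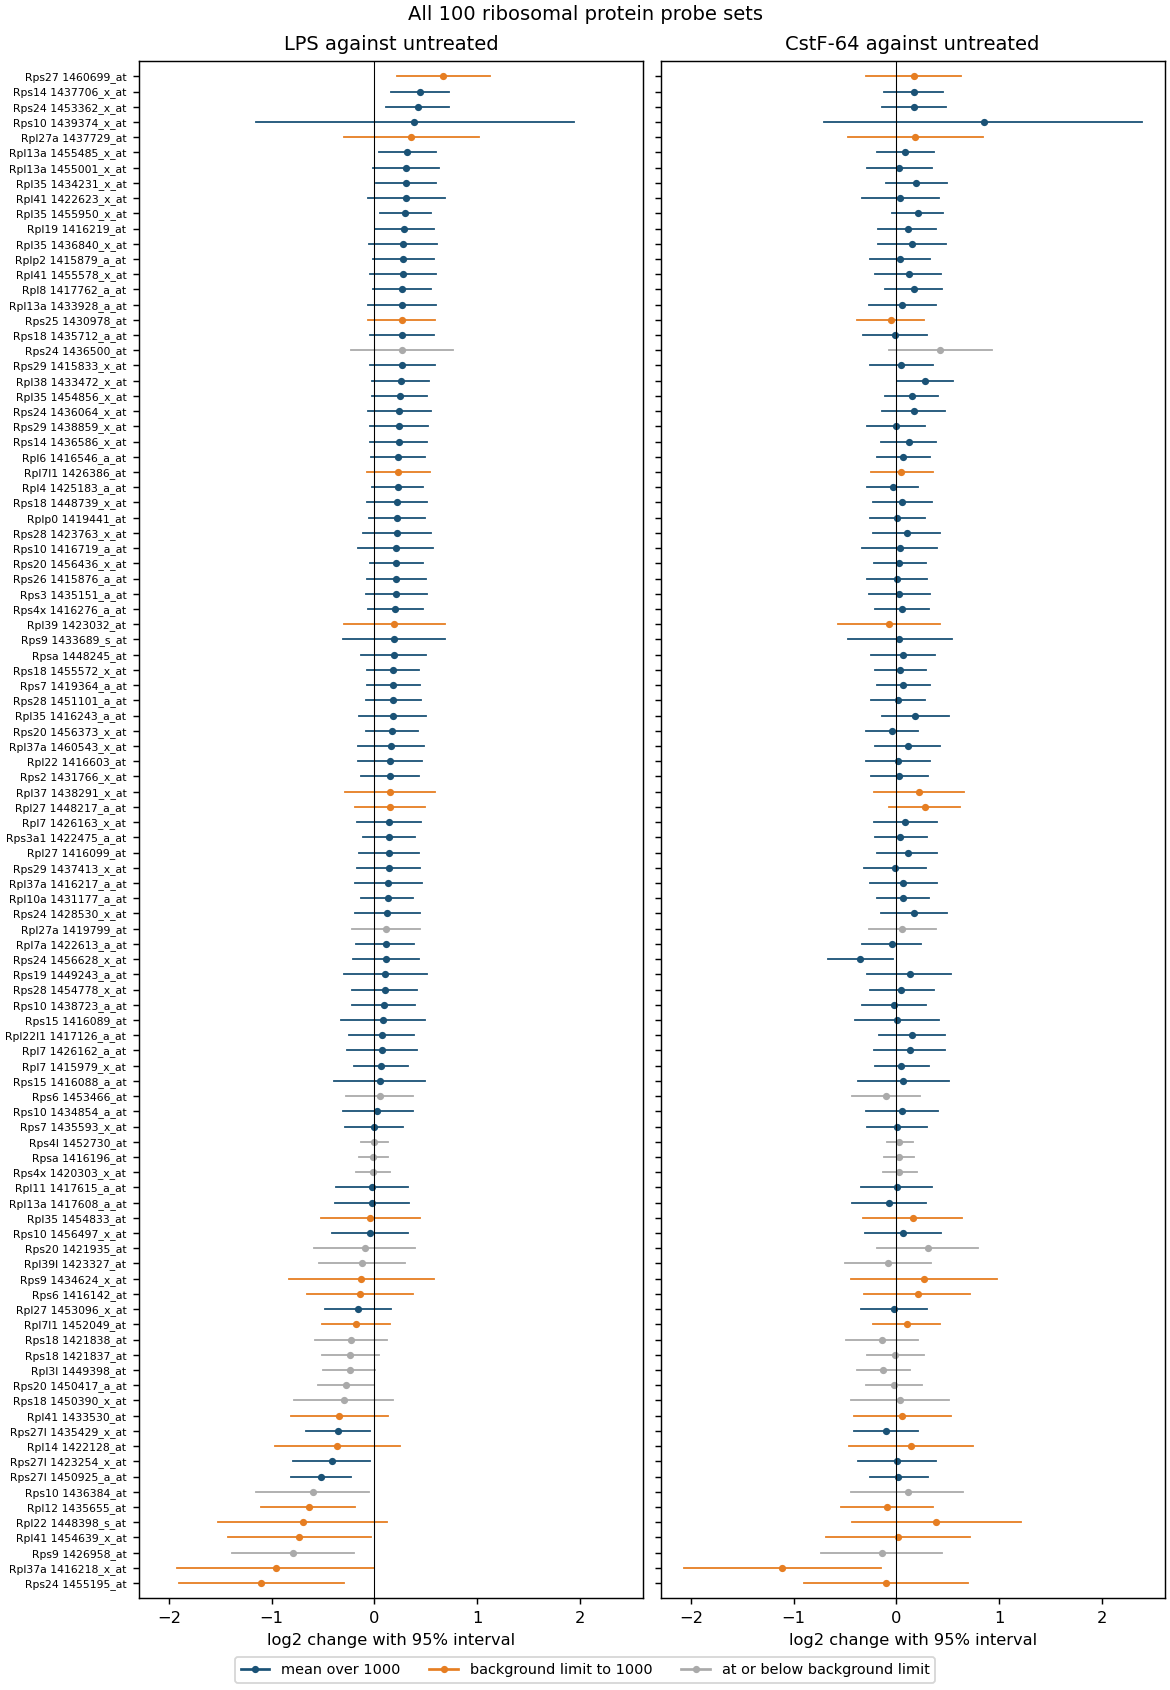
Log2 change with its 95% interval from limma for each of the 100 ribosomal protein probe sets, for LPS and for CstF-64 against untreated cells, in the order of the LPS change. Colours mark mean intensity over 1000, from the background limit of 31.2 to 1000, and at or below the limit, and most intervals reach 0 in both comparisons.

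Rps24, a small subunit protein with alternatively spliced 3′ exons, was the 1 gene of 19 whose probe sets changed unequally with LPS. The test (limma's diffSplice F test, chosen after the data were seen) compared the changes of all probe sets of a gene above the background limit, and 161 of 2952 genes passed it (5.45%). For Rps24 the adjusted p from diffSplice was 0.00665. The difference rested on the dim probe set 1455195_at, which read 70.3, 65.7 and 64.4 untreated, 5.5, 40.2 and 39.0 with LPS and 50.8, 63.9 and 71.1 in the arrays labelled CstF-64. LPS array 1 was below the background limit there and the other LPS arrays were just above it. The change of that probe set was -1.10 (SE 0.36, limma adjusted p = 0.0645).

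The 4 Rps24 probe sets over 1000 changed by 0.11 to 0.42, and among these alone the adjusted p from diffSplice was 0.991. The highest of them, 1453362_x_at, read 2639.9, 2095 and 2672 untreated and 3053, 3213 and 3639 with LPS, without overlap (limma adjusted p = 0.0666). The unequal change was not called under quantile normalization (diffSplice adjusted p = 0.192), under cyclic loess (0.0954), or without untreated array 1 (0.0604) or 2 (0.0862). Against LPS the arrays labelled CstF-64 also changed unequally (diffSplice adjusted p = 0.0115, background 5.93% of genes), and not without CstF-64 array 2 (0.132) or 3 (0.0769). Nor did they pass under quantile normalization (0.226), cyclic loess (0.108) or with only probe sets over 1000 (0.774). Against untreated cells they did not pass (diffSplice adjusted p = 1), where 0% of genes passed.

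**Figure D5:**
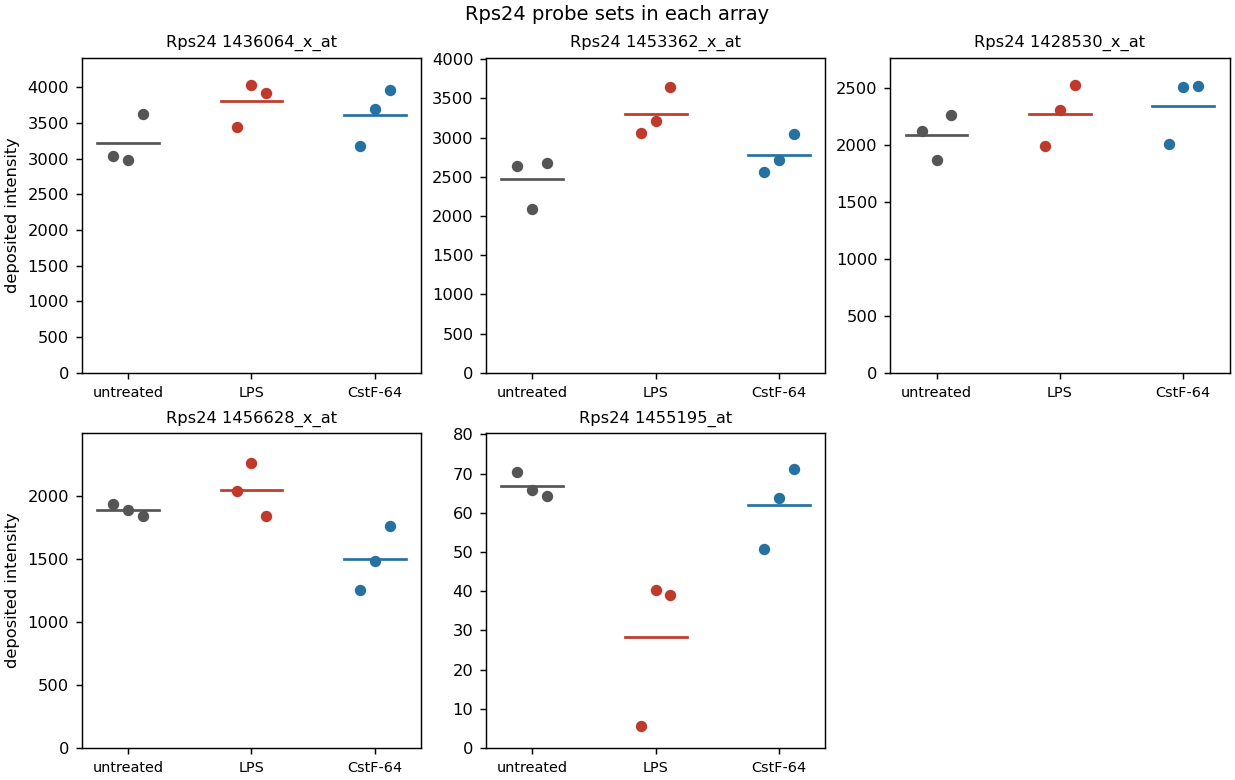
Deposited intensity in each array (points, linear axis from 0) with group means (lines) for the 5 Rps24 probe sets above the background limit. LPS arrays are lower only for the dim probe set 1455195_at (5.5 to 40.2 against 64.4 to 70.3 untreated), and CstF-64 arrays are lowest for 1456628_x_at.

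Other genes had probe sets that differed in change by more than 0.8 on the log2 scale without passing that test. Rpl41, the smallest ribosomal protein, changed with LPS by 0.28 and 0.31 on its bright probe sets and by -0.73 on 1454639_x_at, which read 98.0, 137 and 114 untreated and 30.8, 108 and 73.2 with LPS. Its diffSplice adjusted p was 0.0825, and 0.0112 without LPS array 2. Rpl37a, a zinc finger protein of the large subunit, changed by 0.13 and 0.16 on its bright probe sets and by -0.96 on 1416218_x_at (diffSplice adjusted p = 0.147). For Rpl37a it was 0.0188 without untreated array 1 and 0.0405 without LPS array 1. Rps10 had 1 erratic probe set, 1439374_x_at, which read 2885, 769 and 710.0 in the untreated arrays while the 4 others of that gene over 1000 read between 2647 and 5151 on every array.

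None of the 100 members passed the test between the arrays labelled CstF-64 and untreated cells (limma), where 0.248% of all probe sets (56) did. An unadjusted p under 0.05 was found for 3 members, against 6.45% of all probe sets. The median change was 0.05, against 0.00 for all, with 78 of 100 above 0 and 11464 of all 22626. Among probe sets over 1000 it was 0.06 for the 67 members, 57 of them above 0, and 0.03 for all 917, with 530 above 0. Without untreated array 2 the median of the 100 members was 0.00. The 95% interval lay within 2-fold for 97 members and within 1.5-fold for 82, and for 66 and 65 of the 67 over 1000. Of the 97 and 82, 15 and 11 were members at or below the background limit, where the added 13 shrinks changes and intervals. Over all probe sets, CstF-64 and untreated arrays did not overlap for 12.9%. In 3 members every CstF-64 array was above every untreated array (background 6.67%) and in 1 every array was below (6.18%). No single array left out gave a member call, while the count over all probe sets then ranged from 18 to 110. With LPS array 1 and CstF-64 array 1 left out together, 1 member was called, Rpl22 1448398_s_at (0.83, limma adjusted p = 0.0342), whose values are given above.

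The 3 members with the smallest p were of large and small subunit genes. Rpl37a 1416218_x_at read 51.1, 188 and 137 untreated and 59.1, 37.9 and 39.4 in the CstF-64 arrays, a log2 change of -1.11 (SE 0.43, limma adjusted p = 0.671), and untreated array 1 lay inside the CstF-64 range. The bright Rpl37a probe sets changed by 0.07 and 0.11. Rps24 1456628_x_at read 1937, 1888 and 1843 and 1249, 1481 and 1765, all lower, with a change of -0.35 (limma adjusted p = 0.721). The other 3 Rps24 probe sets over 1000 changed by 0.17 each. Rpl38, which in mouse embryos is needed to translate a subset of Hox mRNAs, read 4015, 3802 and 4481 and 4971, 5157 and 4808, all higher, with a change of 0.28 (limma adjusted p = 0.763). Its LPS arrays, at 4493, 4915 and 5297, were also all above the untreated arrays.

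Between the arrays labelled CstF-64 and LPS, 1 member passed, the Rps27l probe set given above, where 15.2% of all probe sets passed (9.43% higher, 5.79% lower). An unadjusted p under 0.05 was found for 11 members, against 28% of all. The median was -0.06 for members and 0.05 for all, and it turned to 0.13 under quantile normalization and 0.06 under cyclic loess. In 23 members every CstF-64 array was below every LPS array (background 11.4%), and in 9 every one was above (19.4%). All 23 were among the 67 members over 1000, and of all 917 probe sets over 1000 every CstF-64 array was below for 321. The next smallest p-values were those of Rpl22 1448398_s_at, higher by 1.09 (SE 0.37, limma adjusted p = 0.078), and Rps24 1456628_x_at, with a difference of -0.45 (limma adjusted p = 0.0594). The Rpl22 probe set passed without CstF-64 array 1 (1.53, limma adjusted p = 0.00656) and when dim probe sets were left out of the adjustment (1.09, limma adjusted p = 0.0378).

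Other genes of translation were followed on 1 probe set a gene, the brightest, in lists chosen with earlier results known, and medians are as deposited. With LPS none of 9 measured elongation and termination factors and related genes passed (median 0.13), with Eef2k and Eef1e1 among the related genes. Eef2, which moves the ribosome along mRNA, read 3231, 2858 and 3334 untreated and 3728, 3570.1 and 3653 with LPS, all higher, with a change of 0.22 (limma adjusted p = 0.243). Of 29 initiation factors 3 rose and 1 fell (median -0.02), with the all-gene shares 5.93% and 10.7%. Among the 13597 probe sets with a mean above the background limit 1184 rose and 2139 fell. Eif6, which keeps the large subunit from joining too early, read 276, 410.3 and 334 and 452, 629.9 and 738, a rise of 0.80 (SE 0.19, limma adjusted p = 0.0172). Eif2s2 and Eif2b2, parts of the factor that brings the initiator tRNA and of its exchange factor, rose by 0.47 and 0.66. Eif3a, the scaffold of the initiation factor that holds the small subunit, fell by 0.48 on the log2 scale (limma adjusted p = 0.0279). Fau, which is made as a fusion with a small subunit protein, ranged so widely in untreated arrays (1545, 2077 and 2780.5) that its change of 0.33 did not pass (limma adjusted p = 0.562).

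Of 15 genes that control translation of ribosomal protein mRNAs and other mRNAs, 4 fell with LPS and none rose (median -0.37), where 10.7% of all probe sets fell and 5.93% rose. All 15 read above the background limit on at least 1 array, and of the 13597 probe sets with a mean above it 2139 fell and 1184 rose. The 4 were Mtor, the kinase, which fell from 208 ± 17.6 to 133 ± 12.6 (SD, n = 3 each, limma adjusted p = 0.00908), and 3 inhibitors. Deptor, which inhibits mTOR, read 93.8, 55.0 and 72.0 untreated and 25.8, 10.6 and 11.4 with LPS, where every array was below the background limit, so it was at least 2.3-fold lower (limma adjusted p = 0.00207). Pdcd4, which inhibits the helicase Eif4a, read 126, 84.8 and 115 and 18.6, 23.8 and 20.1, all below the limit, and was at least 3.43-fold lower (limma adjusted p = 0.00479). These bounds divide the geometric mean of the untreated values by the limit in place of the dim values. Eif4ebp2, which blocks the cap-binding factor, fell by 0.67 on the log2 scale (limma adjusted p = 0.0351). In the arrays labelled CstF-64 Deptor read 84.7, 61.4 and 66.3 and Pdcd4 42.7, 134 and 122, and none of the 15 passed against untreated cells.

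Other mRNAs with a terminal oligopyrimidine tract (10 genes, median -0.05) and proteins that escort or import ribosomal proteins (15 genes, median -0.38) had none that passed with LPS on their brightest probe sets. Probe sets of a gene disagreed here. Nap1l1, a histone chaperone placed in both lists, read 1303, 1209.9 and 1114 untreated and 776, 982 and 1022 with LPS on its brightest probe set (-0.39, limma adjusted p = 0.0721), while 6 others fell by 0.63 to 1.95 on the log2 scale. Hnrnpa1, an RNA-binding protein of the first list, likewise changed by -0.46 on its brightest probe set and fell by 0.96 on 1436549_a_at (limma adjusted p = 0.00134). In the arrays labelled CstF-64 against untreated cells no gene of these lists passed. Against LPS, 1 of 29 initiation factors was higher in the CstF-64 arrays, Eif4b, a helper of the Eif4a helicase. So were 3 of the 15 genes that control translation, Deptor, Pdcd4 and Mlst8, a subunit of mTOR complexes. Of all probe sets, 9.43% were higher and 5.79% lower in that comparison, and of the 13597 with a mean above the background limit 1883 were higher and 1158 lower. Of the 15 escort and import genes 1 was lower, the import receptor Ipo5. It read 446, 630.2 and 600.0 in CstF-64 and 821, 958 and 982 in LPS arrays (limma adjusted p = 0.00986).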

How the data were processed

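The submitters deposited 1 table of array intensities, on a linear scale, for 22690 probe sets. The scanner software and the normalization are both not given in the sources used here. Per the labels, RNA was isolated with Ultraspec and hybridised at a core facility. Each deposited column has a mean, after trimming 2% from each end, of 150.05 to 150.06. Gene symbols came from the platform annotation, with 20380 of the tested probe sets having 1 gene, 691 several and 1555 none, and all 100 member symbols matched the current gene table.

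Intensities were tested as log2(intensity + 13), where 13 is 0.25 of the overall median of 50.2, rounded. limma 3.58.1 in R 4.3.3 (lmFit, eBayes with an intensity trend) fitted all 9 arrays with a mean per group. The 64 control probe sets were left out, and Benjamini-Hochberg adjustment ran over 22626 probe sets, two-sided, with a threshold of 0.05. "Rose", "fell" and "passed" refer to it. The number of arrays limits the precision. The procedure was tested on simulated data. Alternatives were 3 scalings, 2 pseudocounts (3 and 52), a filter on dim probe sets, no intensity trend, only the groups compared, a replicate block, single arrays left out, and 2 narrower sets of members.

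The members, the lists of other genes and the tests were chosen with earlier results of these data known. Named members were those called in a comparison, or the 4 with the smallest p where fewer than 2 were called, the 5 brightest and 5 dimmest, genes listed for their roles, and the 5 genes whose probe sets differed most. Of the other lists up to 4 genes by p were named. The unequal-change test and the joint omission of 2 arrays were added after the data were seen.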

Additional observations from a re-analysis of the deposited data

How the results depend on the processing

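Rps27l 1450925_a_at had a log2 change below 0 with LPS under all 19 alternatives, and no named member that was called changed sign. The number of LPS calls among members was small under every alternative and its make-up was not fixed. Against the 1 that rose, the count was 6 under median centring, 5 with the filter on dim probe sets, 2 with the smaller pseudocount or without the intensity trend, and 0 with only the compared groups, with the replicate block and among probe sets without _x_at or _s_at. Against the 1 that fell, it was 3 under quantile normalization, cyclic loess or the filter, 2 with the larger pseudocount, without the trend or without LPS array 1 and CstF-64 array 1, and 0 under median centring or with 1 probe set per gene. The filter left 85 members, leaving out _x_at and _s_at left 58, and 1 probe set per gene left 48. Changes of scaling, pseudocount, filter or fit gave 3219 to 4079 LPS calls over all probe sets. The highest count was with the filter, which tested 13597. The members' median LPS change was -0.11 under quantile normalization, -0.03 under cyclic loess and 0.30 under median centring. Single arrays left out gave 0 to 2 that rose, 0 to 3 that fell, a median of 0.08 to 0.19 and 2399 to 4118 calls over all probe sets, and leaving out LPS array 1 and CstF-64 array 1 together gave 4465.

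For CstF-64 against untreated, all probe sets called were 32 with the replicate block and 286 without LPS array 1 and CstF-64 array 1, when 1 member rose. Single arrays left out gave 0 members rising or falling, medians of 0.00 to 0.11 and 18 to 110 calls over all probe sets. Those counts were 18 without untreated array 2, 28 without 3, 85 without LPS array 1, 110 without CstF-64 array 1, 24 without 2 and 20 without 3. For CstF-64 against LPS, members that were higher numbered 3 under quantile normalization or the filter, 2 with the replicate block or without LPS array 1 and CstF-64 array 1 (3867 calls over all probe sets), and 0 under median centring or with 1 probe set per gene. Members that were lower numbered 2 under median centring or the filter, and the median was 0.13, -0.22 and 0.06 under quantile normalization, median centring and cyclic loess. Changes of scaling, pseudocount, filter or fit gave 2541 to 3660 calls over all probe sets in this comparison. Single arrays left out gave 0 to 2 higher, 0 to 1 lower, medians of -0.11 to -0.04 and 2093 to 3299 calls. The cause of these moves was not tested.

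The titles give the groups the same replicate numbers. Deviations from the group means correlated at -0.063 to 0.158 between same-numbered arrays and at -0.236 to 0.196 between differently numbered ones. These ranges overlap, so whether the numbers pair the samples cannot be told from them, and the main fit did not pair the arrays. With the number as a block 0 members rose and 1 fell with LPS, Rps14 1437706_x_at having an adjusted p of 0.0728, and Rpl22 1448398_s_at passed in CstF-64 arrays against LPS (1.09, adjusted p = 0.0295). Medians, counts near the threshold and dim probe sets are limited by 3 arrays a group and by signal close to the background limit of 31.2.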

Other observations

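Another 102 probe sets were annotated to several genes that include a ribosomal protein, and they were left out of the members because their gene cannot be named. With LPS 2 of them rose and 2 fell (3.92%, against 16.6% of all probe sets), and their median log2 change was 0.15. The 72 of them over 1000 had a median of 0.19, with every LPS array above every untreated array for 27.8%, while all 917 probe sets over 1000 had a median of 0.17 and a share of 35.3%. Against untreated cells none passed in the arrays labelled CstF-64 by limma, where 0.248% of all probe sets did. Of the 102, 2 had an unadjusted p under 0.05, against 6.45% of all probe sets, and the median was 0.06. Against LPS 3 were higher in those arrays (2.94%, against 9.43% of all probe sets).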
